A study of Mus musculus with 7 samples.

Results

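The proteasome genes of muscularis macrophages were followed in the small intestine of C57BL6/J mice 24 h after surgery. The set was every gene of the deposited table whose symbol is Psma, Psmb, Psmc, Psmd, Psme, Psmf or Psmg followed by a number, which gave 47 members among 17209 listed genes. The libraries were 3 after pMCAO surgery, called stroke in the series title, and 4 after sham surgery. All 7 libraries came from CX3CR1-GFP+ cells that were sorted by flow cytometry from the peeled muscle layer of the whole small intestine, and total RNA, 2.0 ng a library, was depleted of ribosomal RNA before sequencing. The GFP reporter is carried by both groups, and the labels give C57BL6/J as the genotype of all mice without describing the reporter allele. The labels call the sham samples biological replicates and the pMCAO samples replicates, the description of pMCAO 3 names a pool, and no label says whether a library held 1 animal, so the p-values speak only of the spread among these samples, which may be technical.

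The proteasome is the barrel-shaped protease that degrades ubiquitin-tagged proteins. Its core is built of alpha rings, which gate the entrance, around beta rings, which hold the caspase-like, trypsin-like and chymotrypsin-like active sites of Psmb6, Psmb7 and Psmb5. Interferon-gamma induces Psmb9, Psmb10 and Psmb8, which take the places of Psmb6, Psmb7 and Psmb5 in newly built cores, and this immunoproteasome, which is common in immune cells such as macrophages, favours peptides suited to MHC class I presentation. ATPases (Psmc) and non-ATPase subunits (Psmd) form the regulatory cap that binds, unfolds and feeds substrates, the Psme proteins are alternative caps, and Psmg proteins are chaperones that build the core.

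No proteasome gene passed the threshold of an adjusted p of 0.05 in edgeR's quasi-likelihood test, but most had lower estimates after pMCAO, and the 3 immunoproteasome catalytic subunits were the lowest group by role. The estimate was below 0 on the log2 scale for 39 of the 47 members and above 0 for 8, with a median log2 change (pMCAO minus sham) of -0.35, against -0.02 over all genes, of which 51.4% had a lower estimate. Among all genes the test called 0.0697% higher and 0.0291% lower. At an unadjusted p under 0.05, 11 members were lower and 0 higher, which is 23.4% of the members, against 6.47% of all genes lower and 6.97% higher. In 7 members, 14.9%, every pMCAO library lay below every sham library and in 0 members every pMCAO library lay above, against 6.58% of all genes below and 5.99% above. Members of 1 complex can vary together from library to library, so these counts are not independent of each other. Of the members, 46 stood at 5 CPM or more in sham libraries. Among all 11491 genes of that level, 54.4% had lower estimates, with a median of -0.05. At an unadjusted p under 0.05, 1022 of those genes were lower and 876 higher, 16.5% together. In 8.0% of them every pMCAO library lay below every sham library. With RLE factors 39 members had lower estimates, with upper-quartile factors 37, and with no scaling factors 46, all but Psme4, where the median of all genes was itself -0.14. Library pMCAO 3 stood apart, with the lowest value of the 7 libraries in 34 of the 47 members, and without it 31 members had lower estimates, with a median of -0.17.

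**Figure D1:**
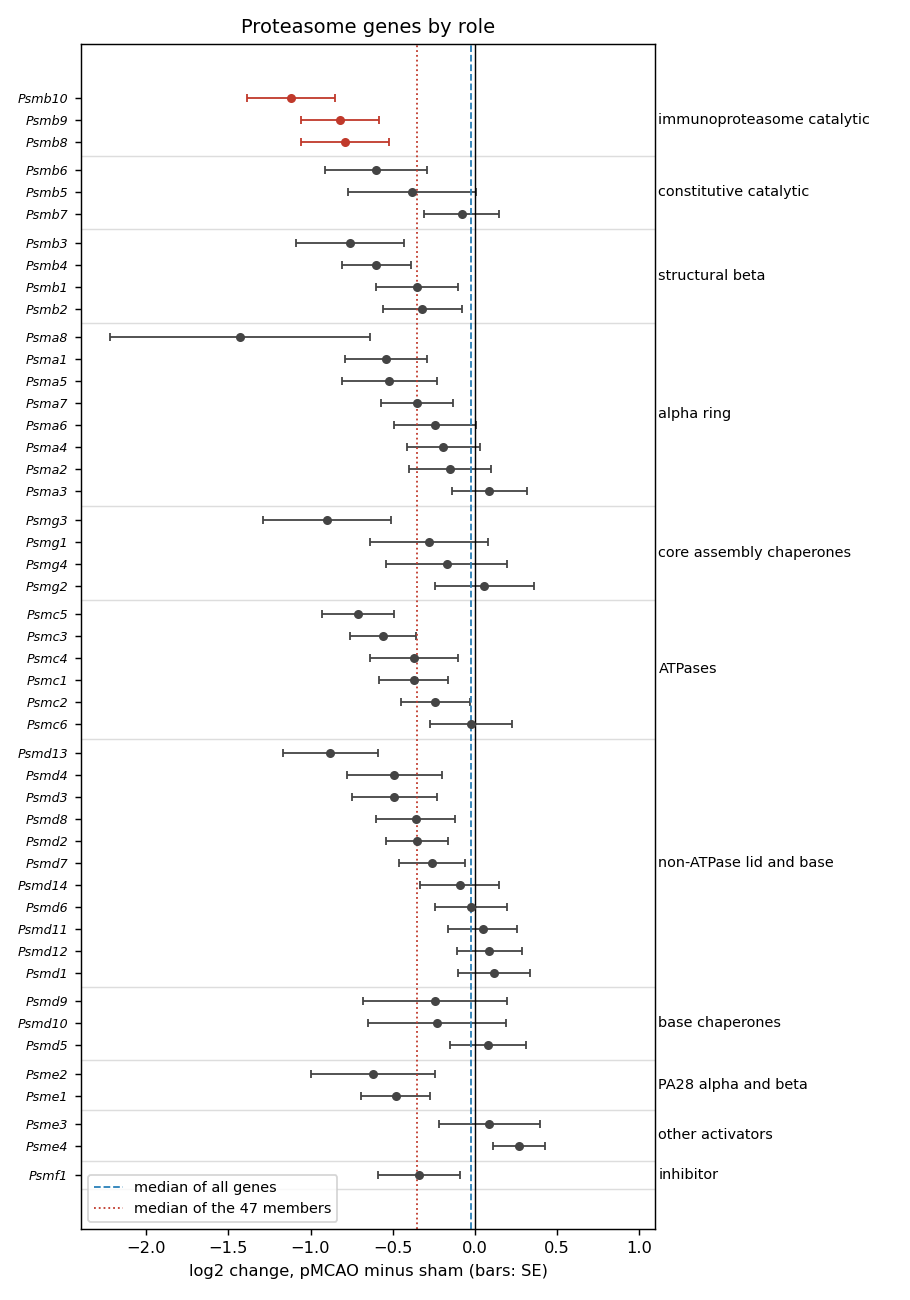
Log2 change of each of the 47 proteasome genes, pMCAO minus sham, grouped by role, as the edgeR estimate with its SE as a bar (3 pMCAO and 4 sham libraries). The dotted line is the median of the members (-0.35) and the dashed line that of all genes (-0.02). The 3 immunoproteasome catalytic subunits, in red, lie between -1.12 and -0.79.

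The immunoproteasome catalytic subunits share an interferon-inducible role, so the DNA around their RefSeq starts is shown beside that of constitutive subunits and of Psme1, an activator that interferon-gamma also induces. Each sequence is 300 bases, 250 before and 50 after the RefSeq start, read 5′ to 3′ on the strand of the gene, from RefSeq on GRCm38.p6. These starts differ from the gene starts of GENCODE M21, and for Psmb8, Psmb9 and Psme1 the RefSeq start lies 474, 434 and 371 bases downstream of it, so that their windows lie wholly within the GENCODE gene. Of the 47 members, 39 had a promoter sequence in the table used. The capitals in Psmb8 (chr17:34197945-34198244, plus strand) mark a STAT dimer site of the letters TTCNNNGAA, those in Psmb9 (chr17:34187281-34187580, minus strand) a CCAAT box read on the other strand, and those in Psme1 (chr14:55578244-55578543, plus strand) an interferon-stimulated response element, searched as GAAA, any 2 bases and GAAA again, read on the other strand. The capitals in Psmb5 (chr14:54617946-54618245, minus strand) and Psmb6 (chr11:70525107-70525406, plus strand) mark an antioxidant response element of the letters TGACNNNGC, the element through which NRF1 and NRF2 drive proteasome genes. Psmb10 (chr8:105938343-105938642, minus strand) held none of these letters. Neither did the windows of Psme2, the interferon-inducible partner of Psme1, which are not shown. An absence of these letters says nothing about the factors.
Psmb8: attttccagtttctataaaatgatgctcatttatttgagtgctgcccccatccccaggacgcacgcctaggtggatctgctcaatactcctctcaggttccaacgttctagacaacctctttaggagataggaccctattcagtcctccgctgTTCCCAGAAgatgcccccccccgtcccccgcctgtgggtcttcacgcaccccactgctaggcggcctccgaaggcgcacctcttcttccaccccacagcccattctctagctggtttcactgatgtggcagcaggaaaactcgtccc
Psmb9: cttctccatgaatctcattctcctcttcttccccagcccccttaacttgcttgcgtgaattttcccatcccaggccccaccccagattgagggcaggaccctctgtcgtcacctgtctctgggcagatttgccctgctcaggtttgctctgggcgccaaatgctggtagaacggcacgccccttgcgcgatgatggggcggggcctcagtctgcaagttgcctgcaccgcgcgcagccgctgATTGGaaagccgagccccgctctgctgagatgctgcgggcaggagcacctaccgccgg
Psmb10: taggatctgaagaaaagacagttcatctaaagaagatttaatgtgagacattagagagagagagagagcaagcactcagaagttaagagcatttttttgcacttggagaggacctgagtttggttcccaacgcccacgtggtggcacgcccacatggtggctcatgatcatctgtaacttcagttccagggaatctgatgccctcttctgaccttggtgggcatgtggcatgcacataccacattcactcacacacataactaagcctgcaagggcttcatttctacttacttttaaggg
Psme1: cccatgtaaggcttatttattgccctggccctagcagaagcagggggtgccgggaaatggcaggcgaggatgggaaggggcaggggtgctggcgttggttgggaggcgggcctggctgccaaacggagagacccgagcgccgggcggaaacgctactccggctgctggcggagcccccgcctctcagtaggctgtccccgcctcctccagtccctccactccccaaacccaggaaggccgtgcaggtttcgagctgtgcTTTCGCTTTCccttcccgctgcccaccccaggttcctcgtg
Psmb5: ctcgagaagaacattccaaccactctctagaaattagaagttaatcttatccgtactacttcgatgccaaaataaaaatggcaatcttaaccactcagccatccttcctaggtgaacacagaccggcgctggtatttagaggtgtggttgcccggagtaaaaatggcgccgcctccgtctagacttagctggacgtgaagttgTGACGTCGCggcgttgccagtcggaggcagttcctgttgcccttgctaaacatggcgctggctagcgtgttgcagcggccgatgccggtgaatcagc
Psmb6: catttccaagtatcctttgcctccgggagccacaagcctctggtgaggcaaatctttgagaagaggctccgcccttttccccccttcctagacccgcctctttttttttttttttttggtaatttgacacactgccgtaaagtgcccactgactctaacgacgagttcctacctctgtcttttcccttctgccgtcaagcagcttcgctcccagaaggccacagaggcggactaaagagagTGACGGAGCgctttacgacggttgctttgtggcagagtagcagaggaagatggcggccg

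Both strands were searched, and no matches of different motifs overlap in the sequences shown. A member with several starts was counted once, as a match if any start held it, while each of all 32851 promoters was counted on its own. Such a member had more chances of a match, so the shares are not fully alike. The interferon-stimulated response element was in 5 of 39 members (Psmb3, Psmd4, Psmd9, Psme1 and Psmg4), 12.8%, against 3.44% of all 32851 promoters of the same length. The STAT site was in 3 members (Psmb8, Psmd2 and Psmg1), 7.69%, against 8.3% of all promoters. The antioxidant response element was in 6 members (Psmb5, Psmb6, Psmc6, Psmd12, Psmd9 and Psme4), 15.4%, against 12.4%, and the CCAAT box in 13, 33.3%, against 37.4%. A match is a description of the sequence and not a binding site.

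Psmb10 (ENSMUSG00000031897, chr8:105935735-105938444 on GRCm38, minus strand), the immunoproteasome subunit with trypsin-like activity, had the lowest unadjusted p of the members. In CPM, the count of a gene scaled to a common library size with TMM factors, Psmb10 stood at 44.5, 51.6 and 25 in pMCAO 1 to pMCAO 3, against 76.7, 117.1, 65.7 and 91.4 in sham 1 to sham 4. Every pMCAO library was below every sham library. Its mean was 40.4 ± 13.8 CPM after pMCAO and 87.7 ± 22.3 CPM after sham (SD, n = 3 and 4), a log2 change of -1.12 (SE 0.27, 0.46-fold) with an unadjusted p of 0.000881 and an adjusted p of 0.117 by edgeR. Without pMCAO 3, the lowest library, its log2 change was -0.87 (adjusted p = 0.265 by edgeR), and DESeq2, the other count test, called Psmb10 (adjusted p = 0.00788, within a range of 0.00788 to 0.739 over the alternatives). DESeq2 called 470 of all 17209 genes, against 17 by edgeR.

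Psmb9 (ENSMUSG00000096727, chr17:34181987-34187764, minus strand), also called LMP2, takes the place of the caspase-like subunit and lies head to head with the peptide transporter gene Tap1. Psmb9 had 35.5, 54.1 and 34.4 CPM in pMCAO 1 to pMCAO 3, against 80.5, 81.6, 49.9 and 80.7 CPM in sham 1 to sham 4. The groups overlap because sham 3 stands below pMCAO 2. The log2 change of Psmb9 was -0.82 (SE 0.24, adjusted p = 0.177 by edgeR). Psmb8 (ENSMUSG00000024338, chr17:34197721-34201454, plus strand), the chymotrypsin-like immunosubunit LMP7, had 83.1, 65.3 and 33.3 CPM in pMCAO 1 to pMCAO 3, against 81.9, 135.4, 104.4 and 97.9 CPM in sham 1 to sham 4. Here pMCAO 1 was level with sham 1, the lowest sham library, and the other pMCAO libraries were below all sham libraries. The log2 change of Psmb8 was -0.79 (SE 0.27, adjusted p = 0.239 by edgeR), and -0.50 without pMCAO 3.

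The 3 constitutive catalytic subunits had edgeR estimates nearer 0, with a median of -0.38 against -0.82 for the 3 immunosubunits, a difference that was not tested. Psmb6, the constitutive caspase-like subunit, had 38.8, 46.6 and 16.7 CPM after pMCAO and 36, 52.2, 51.5 and 66.6 CPM after sham, a log2 change of -0.60 (SE 0.31, adjusted p = 0.422 by edgeR). Psmb5, the constitutive chymotrypsin-like subunit, had 22.1, 22.2 and 6.56 CPM after pMCAO and 14.6, 29.8, 19.9 and 23.8 CPM after sham, a log2 change of -0.38 (SE 0.39, adjusted p = 0.712 by edgeR). Psmb7, the constitutive trypsin-like subunit, had 60, 66.7 and 40.4 CPM after pMCAO and 57.6, 77.5, 52.4 and 47.9 CPM after sham, a log2 change of -0.08 (SE 0.23, adjusted p = 0.912 by edgeR). The groups of all 3 overlap, and pMCAO 3 was the lowest library for each of them. Without pMCAO 3 the estimate for Psmb6 was -0.27, that for Psmb5 0.01 and that for Psmb7 0.11. Psmb5 shares 24.9% of the 100-base windows of its transcripts with Gm3375, so its counts are uncertain. Exons of Psmb7 overlap those of Nek6 over 405 bp, and exons of Psmb8 those of Gm20496 over 498 bp. Both overlaps are on opposite strands and the strand setting of the counting is not stated, so these counts are uncertain too.

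**Figure D2:**
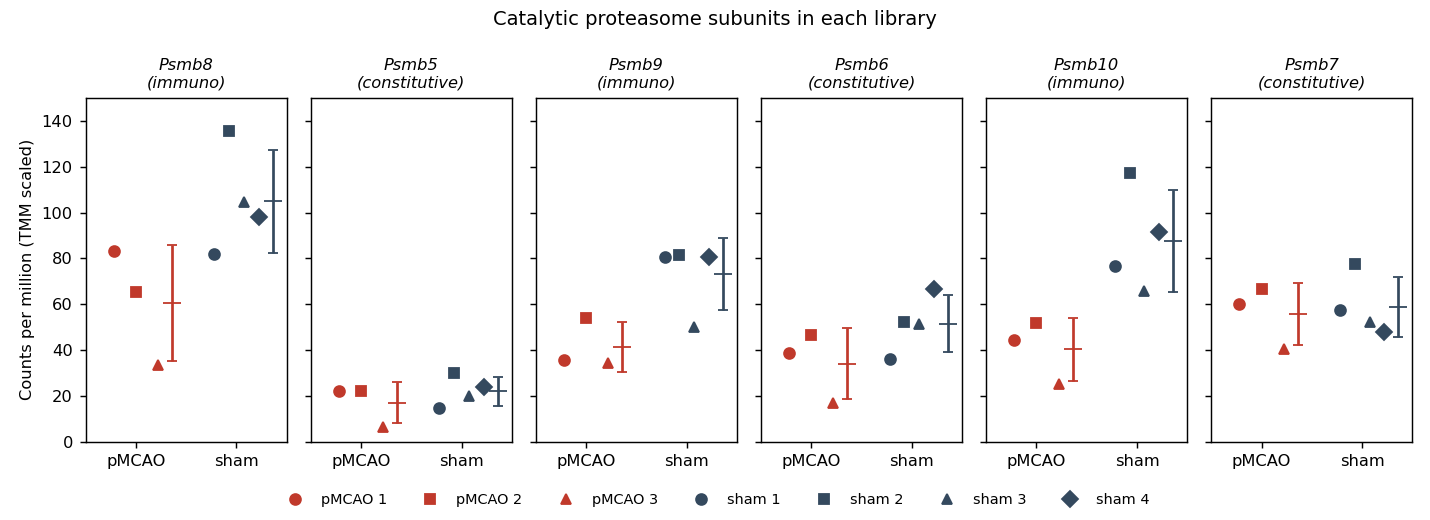
CPM (TMM scaled) of the 3 immunoproteasome catalytic subunits, each beside the constitutive subunit whose place it takes, in each library, with the mean and SD of each group (3 pMCAO, 4 sham). Only for Psmb10 do the groups not overlap, with 25 to 51.6 CPM after pMCAO and 65.7 to 117.1 CPM after sham.

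Each immunosubunit was set against the constitutive subunit it displaces within the same library, a ratio of counts per kilobase of exon that does not depend on the scaling factors. The log2 ratio of Psmb10 over Psmb7 was 0.57, 0.64 and 0.31 in pMCAO 1 to pMCAO 3, against 1.42, 1.60, 1.33 and 1.94 in sham 1 to sham 4. The groups do not overlap, with means of 0.51 ± 0.17 after pMCAO and 1.57 ± 0.27 after sham (SD, n = 3 and 4). The difference was -1.06, a 0.48-fold ratio, with p = 0.0571 in the two-sided exact permutation test, which is the smallest p that 35 relabellings allow (0.171 after Benjamini-Hochberg adjustment over 3 ratios). Psmb10 made up 55.4 to 60.8% of the sum of Psmb10 and Psmb7 per kilobase after pMCAO and 71.5 to 79.3% after sham. With the length of the principal transcript in place of all merged exons, these shares were 35.4 to 40.6% after pMCAO and 52.6 to 62.8% after sham, so which of the pair is higher depends on the length used. With the trend of each library with GC content and length taken out, an alternative chosen after seeing the data, the ratio was 0.82, 0.64 and 1.09 in pMCAO 1 to pMCAO 3, against 1.60, 1.21, 1.03 and 1.41 in sham 1 to sham 4. The groups then overlap, and the difference was -0.46 (exact permutation p = 0.114).

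The other ratios overlapped between the groups. The log2 ratio of Psmb8 over Psmb5 was -0.00, -0.35 and 0.43 in pMCAO 1 to pMCAO 3, against 0.57, 0.27, 0.48 and 0.13 in sham 1 to sham 4, a difference of -0.34 (exact permutation p = 0.229, 0.343 adjusted). The log2 ratio of Psmb9 over Psmb6 was -1.10, -0.75 and 0.08 in pMCAO 1 to pMCAO 3, against 0.20, -0.32, -1.01 and -0.69 in sham 1 to sham 4. Its difference was -0.13 (exact permutation p = 0.686, 0.686 adjusted), and it was 0.09 without sham 1 and 0.12 without pMCAO 1. The spread within each group exceeded the difference for this pair. With the GC and length trends taken out, the Psmb8 over Psmb5 difference was -0.59, with groups that do not overlap (exact permutation p = 0.0571), and the Psmb9 over Psmb6 difference was -0.11 (exact permutation p = 0.8). The 3 ratios were not tested against each other.

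**Figure D3:**
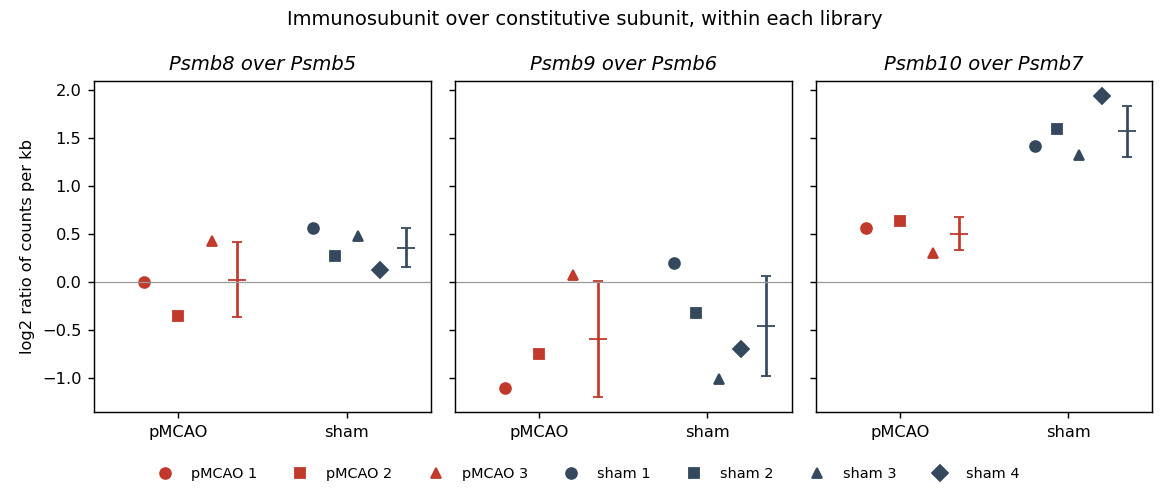
Log2 ratio of each immunosubunit over the constitutive subunit whose place it takes, per kilobase of merged exons, in each library, with the mean and SD of each group (3 pMCAO, 4 sham). The Psmb10 over Psmb7 ratio runs from 0.31 to 0.64 after pMCAO and from 1.33 to 1.94 after sham, while the other ratios overlap.

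Levels of different genes were compared per kilobase of exon. With all merged exons as the length, Psmb10 averaged 23.7 ± 8.08 CPM per kilobase after pMCAO and 51.4 ± 13.1 after sham (SD, n = 3 and 4). Psmb8 averaged 17.9 ± 7.46 after pMCAO and 31 ± 6.64 CPM per kilobase after sham, and Psmb9 11.3 ± 3.03 after pMCAO and 20 ± 4.25 after sham. On that length the highest sham level of the members was that of Psma6, an alpha ring subunit, with 59.3 ± 21.3 CPM per kilobase after pMCAO and 70.1 ± 11.8 after sham, and with the principal transcript as the length it was that of Psma1, at 101.9 CPM per kilobase after sham. The lowest member was Psma8, the alpha subunit that replaces Psma7 in testis, with 0.513, 0.518 and 1.63 CPM after pMCAO and 1.85, 4.43, 1.31 and 2.03 CPM after sham. Psmb11, the thymus-specific beta subunit, was not among the listed genes.

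In the alpha ring, 7 of 8 members had lower estimates and 0 passed the test, with a median log2 change of -0.30. Psma1 had 96.8, 92.3 and 62.7 CPM after pMCAO and 183.7, 110.5, 102.0 and 93.2 CPM after sham, a log2 change of -0.54 (adjusted p = 0.359 by edgeR). Its high sham value came from sham 1, and pMCAO 1 lay above sham 4. The change of Psma8 was -1.43 with an SE of 0.79, the widest of the members (adjusted p = 0.452 by edgeR). Psma6 differed by -0.24 (SE 0.25), and by 0.03 without pMCAO 3, and Psma3 was the 1 alpha subunit with a higher estimate (0.09, under TMM factors).

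All 4 structural beta subunits, which complete the beta rings without an active site, had lower estimates, with a median log2 change of -0.48. Psmb4 had 68.7, 70.7 and 47.2 CPM after pMCAO, against 116.4, 93.9, 84.5 and 83 CPM after sham. All pMCAO libraries were below all sham libraries, and the log2 change of Psmb4 was -0.60 (SE 0.21, adjusted p = 0.234 by edgeR). Psmb3 had 22.3, 23.1 and 10.3 CPM after pMCAO, against 40.9, 38.8, 20.4 and 25.5 CPM after sham, a log2 change of -0.76 (adjusted p = 0.342 by edgeR). For Psmb3 the groups overlap at sham 3. The estimate for Psmb1 was -0.35 and that for Psmb2 -0.32.

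In the regulatory cap, the 6 ATPases had lower estimates throughout, between -0.71 and -0.02, with a median of -0.37. Psmc5 had 22.4, 29 and 22.7 CPM after pMCAO, against 46, 40, 32.8 and 43.3 CPM after sham, a log2 change of -0.71 (SE 0.22, adjusted p = 0.2 by edgeR). Psmc3 had 42.2, 35 and 30.6 CPM after pMCAO, against 49.7, 55.3, 53.1 and 53.6 CPM after sham, a log2 change of -0.56 (SE 0.20, adjusted p = 0.252 by edgeR). The groups do not overlap for either ATPase, and Psmc3 varied little among the sham libraries. Of the 11 non-ATPase subunits, 8 had lower estimates, with a median of -0.26. Psmd13, a lid subunit, had 15, 18.3 and 12.3 CPM after pMCAO, against 37.1, 33.6, 19.5 and 22.1 CPM after sham, a log2 change of -0.88 (SE 0.29, adjusted p = 0.221 by edgeR). Psmd2, a scaffold of the base, was nearly constant after pMCAO at 40.2, 39.6 and 38.9 CPM, against 57.7, 51.1, 47.9 and 45 CPM after sham, a log2 change of -0.35 (SE 0.19, adjusted p = 0.448 by edgeR). For both subunits the groups do not overlap.

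Psmd4, a ubiquitin receptor, had an estimate of -0.49 (SE 0.29) and Psmd14, the deubiquitinase of the lid, one of -0.09 (SE 0.24). Psmd1 (0.12), Psmd11 (0.05) and Psmd12 (0.09) were the non-ATPase subunits with higher estimates, and with no scaling factors that of Psmd12 was -0.03. Psmd12 had 61.4, 99.2 and 68.7 CPM after pMCAO and 75, 74.5, 63.6 and 75.2 CPM after sham, with overlapping groups (adjusted p = 0.885 by edgeR). Psmd3, a lid subunit, had 16.8, 23.5 and 13.8 CPM after pMCAO and 25.5, 22.7, 25.9 and 27.2 CPM after sham, a log2 change of -0.49 (adjusted p = 0.43 by edgeR), with 1 overlap, of pMCAO 2 with sham 2.

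Among the alternative caps, the interferon-inducible pair had lower estimates, Psme4 had a higher one, that of Psme3 changed sign with the setting, and none passed the test. Psme1, the alpha subunit of PA28, had 79, 64.5 and 63.9 CPM after pMCAO and 102.1, 119.9, 64.9 and 99.4 CPM after sham, a log2 change of -0.48 (SE 0.21, adjusted p = 0.348 by edgeR). Psme2, its beta subunit, had 37.6, 15.4 and 9.7 CPM after pMCAO and 22.8, 39.8, 30.2 and 34.8 CPM after sham, a log2 change of -0.62 (SE 0.38, adjusted p = 0.5 by edgeR). Psme2 shares 44.5% of its 100-base windows with Psme2b, and its pMCAO 1 value was above most sham values, with an estimate of -1.35 without pMCAO 1 and -0.28 without pMCAO 3. Psme4, the nuclear activator PA200, had 282.4, 254.8 and 287.4 CPM after pMCAO and 266.0, 191.9, 234.4 and 222.3 CPM after sham, a log2 change of 0.27 (SE 0.16, adjusted p = 0.502 by edgeR). Its groups overlap because sham 1 stands above pMCAO 2. Psme3, the nuclear PA28 gamma, had 26.7, 46.8 and 18.8 CPM after pMCAO and 31.5, 38.6, 22.9 and 23.2 CPM after sham, a log2 change of 0.09 (adjusted p = 0.932 by edgeR). The estimate for Psme3 was -0.35 without pMCAO 2, its highest library, and -0.03 with no scaling factors. Psmf1, the inhibitor PI31, had 20.9, 15.5 and 19.7 CPM after pMCAO and 27.4, 19.8, 22.9 and 24.2 CPM after sham, a log2 change of -0.34 (adjusted p = 0.584 by edgeR).

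Of the 4 chaperones that build the core, 3 had lower estimates, with a median log2 change of -0.22. Psmg3, which pairs with Psmg4 on the growing alpha ring, had 4.87, 7.44 and 3.48 CPM after pMCAO, against 9.14, 10.5, 9.53 and 10.3 CPM after sham. The groups do not overlap, and the log2 change of Psmg3 was -0.90 (SE 0.39, adjusted p = 0.329 by edgeR). Its partner Psmg4 had an estimate of -0.17 (SE 0.37), and the other pair, Psmg1 and Psmg2, had -0.28 and 0.06. The chaperones of the cap base, Psmd5, Psmd9 and Psmd10, had estimates of 0.08, -0.24 and -0.23, with SEs between 0.23 and 0.44. Exons of Psmd9 overlap those of Gm26745 on the opposite strand over 1849 bp, so its counts are uncertain. In all, exons of 13 members overlap those of another gene. Among them are Psmd13, with Sirt3 over 342 bp, and Psmc3, with Slc39a13 over 215 bp, both on opposite strands. Besides Psmb5 and Psme2, Psma5 shares 27.5% of its 100-base windows with Gm8394, and Psma3 20.6% with Gm13835.

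The differences were unequal between libraries of the same group. Of the sham libraries, sham 3 had the lowest value of all 7 libraries in 6 members. Relative to the mean of the sham libraries, the median log2 level of the members was -0.24, -0.11 and -0.66 in pMCAO 1 to pMCAO 3, against 0.15, 0.23, -0.28 and -0.04 in sham 1 to sham 4. The summed level of the members was 2391.4, 2415.0 and 1824.6 CPM in pMCAO 1 to pMCAO 3, against 2963.9, 2925.8, 2263.3 and 2483.6 CPM in sham 1 to sham 4. Sham 3 was below pMCAO 1 and pMCAO 2 in this sum. Without pMCAO 3, 8 members were lower at an unadjusted p under 0.05 and 0 higher, against 10.7% of all genes in either direction. The median coefficient of variation of the members was 24.6% among pMCAO libraries and 21.4% among sham libraries, against 24 and 19.8% over all genes of at least 5 CPM.

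**Figure D4:**
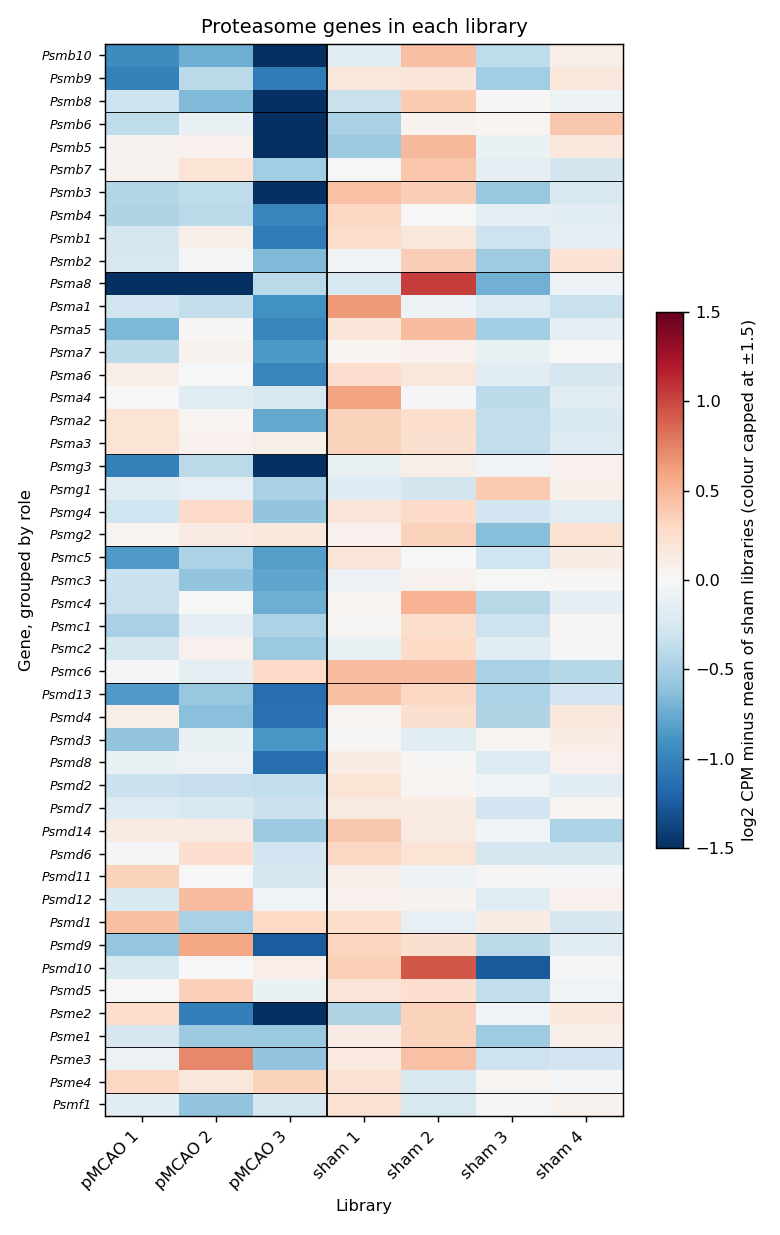
Log2 CPM of each proteasome gene minus its mean over the 4 sham libraries, in each of the 7 libraries (columns), with genes grouped by role (rows) and the colour capped at 1.5 in either direction. Blue is lower and red higher than the sham mean. The pMCAO 3 column is blue in most rows, and its median is -0.66.

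The change of a member went with the base composition of its transcript. Over the 47 members, the Spearman correlation of the log2 change with the GC content of the longest transcript was -0.60, and with exon length 0.32. Over 17127 genes with an annotated sequence these were -0.38 and 0.16, given as descriptions since genes of the same libraries are not independent. Of the 25 members with a GC content of at least 49.7%, 24 had lower estimates, with a median of -0.49, and of the 22 below it, 15 had lower estimates, with a median of -0.12. Among all genes of at least 20 CPM in sham libraries, the same division gave 80.1% lower with a median of -0.28 at or above it (2687 genes), and 34.2% lower with a median of 0.14 below it (4294 genes). The GC content was 56.5% for Psmb10, 54.1% for Psmb9 and 52.5% for Psmb8. That of their constitutive counterparts was 40.8% for Psmb7, 51.6% for Psmb6 and 56.6% for Psmb5. Of the 1104 genes of at least 20 CPM with a GC content of 52.5 to 56.5%, the range of the immunosubunits, 83.9% had lower estimates, with a median of -0.31. With offsets for the trend of each library with GC content and length, 42 of 47 members had lower estimates, with a median of -0.26 against -0.02 over all genes. At an unadjusted p under 0.05 by edgeR, 7 members were lower with the offsets, against 11 without them. The share of all genes at that p, in either direction, was 10.5% with the offsets and 13.4% without. With the offsets the log2 change of Psmb10 was -0.76, of Psmb9 -0.60 and of Psmb8 -0.62, while that of Psmb7 was -0.26, of Psmb6 -0.41 and of Psmb5 -0.01. That of Psme1 was -0.11 and that of Psme4 0.02.

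**Figure D5:**
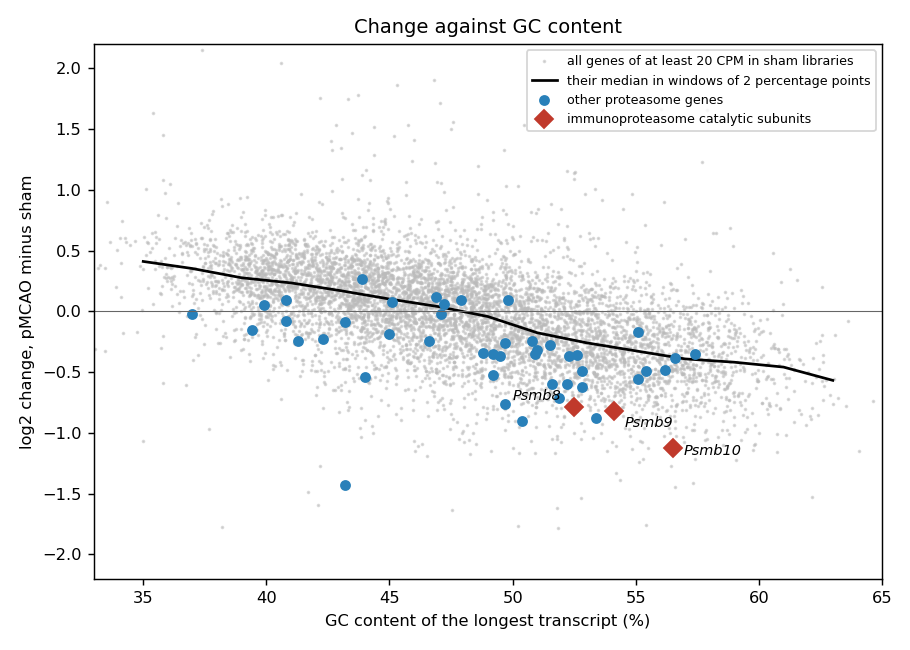
Log2 change, pMCAO minus sham, against the GC content of the longest transcript for 6981 genes of at least 20 CPM in sham libraries (grey), with their median in windows of 2 percentage points (line), the 3 immunoproteasome catalytic subunits (red diamonds) and the other proteasome genes (blue). The grey cloud slopes downward, and the 3 red points lie below the line. A further 15 grey points fall outside the axes.

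Counts assigned to listed genes were 12685941 to 21680302 in the pMCAO libraries and 18873893 to 34432716 in the sham libraries. Other measures also differed between the groups, some with overlap. Apart from a fit with a fibroblast and endothelial marker score as a covariate, given below, their part in the results was not tested. Mitochondrial ribosomal RNA took 8.26 to 12.55% of the counts after pMCAO and 2.42 to 5.82% after sham. All 7 fibroblast markers had higher estimates, with summed levels of 104.0 to 532.5 CPM after pMCAO and 52.9 to 163.3 CPM after sham, as had all 7 blood endothelial markers, with 356.1 to 490.5 CPM after pMCAO and 118.1 to 305.0 CPM after sham. Of the 8 pan-macrophage markers, all present, 7 had lower estimates and 1, Mertk, a higher one, with a median of -0.29, and summed levels of 6031.1 to 6623.9 CPM after pMCAO and 6246.8 to 7832.3 CPM after sham. For the sort gene Cx3cr1 the estimate was -0.55 (adjusted p = 0.256 by edgeR) and for Ptprc, which encodes CD45, it was -0.02. Peritoneal macrophage markers summed to 21.5 to 53.4 CPM after pMCAO and 10.3 to 22.2 CPM after sham, with overlap. Of the 3 measured, 2 had higher estimates and 1, Icam2, a lower one (-0.32). Prg4, named after its values were seen, had 17.2 to 48 CPM after pMCAO and 5.75 to 11.5 CPM after sham, a log2 change of 2.00 (adjusted p = 0.0535 by edgeR). The other marker with a higher estimate, Selp, averaged 1.27 CPM after pMCAO and 0.303 CPM after sham. Summed markers of smooth muscle, glia, T cells, B cells, dendritic cells, monocytes, neutrophils and adipocytes overlapped between the groups. The adipocyte value was that of Fabp4 alone, with 130.9 to 557.0 CPM after pMCAO and 61.7 to 188.1 CPM after sham. Its log2 change was 1.33 (adjusted p = 0.431 by edgeR). Of the defining markers, Sox10, Gfap, Ly6g, Gata6, Adipoq, Plin1 and Cidec were not among the listed genes, and S100b, Retnlg and Selp were at 0 in some libraries. With a fibroblast and endothelial marker score as a covariate, 40 of 47 members had lower estimates, with a median of -0.35, and the log2 change of Psmb10 was -1.29 (adjusted p = 0.739 by edgeR). In that fit 5 members were lower at an unadjusted p under 0.05, against 6.0% of all genes in either direction. Without the covariate these were 11 members and 13.4%. The fit with the covariate called 0 of all genes, against 17 without it. In bulk RNA, fewer cells of a type and less RNA per cell cannot be told apart.

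Genes of the neighbouring pathways were described from 5 lists of the pathways. None of their members passed the test. Interferon signalling toward the immunoproteasome had 10 of 12 genes lower, with a median log2 change of -0.40, of which 5 were lower at an unadjusted p under 0.05, against 6.47% of all genes, and 4 were lower with groups that do not overlap, against 6.58% of all genes. Nlrc5, the transactivator of class I genes and of Psmb9, had 71.9, 52 and 45.5 CPM after pMCAO, against 101.4, 94.1, 76.9 and 91 CPM after sham, a log2 change of -0.69 (SE 0.20, adjusted p = 0.186 by edgeR). Every pMCAO library was below every sham library. Ifngr2, a chain of the interferon-gamma receptor, had 91.5, 99.5 and 64 CPM after pMCAO, against 103.9, 147.3, 136.0 and 150.8 CPM after sham, a log2 change of -0.66 (adjusted p = 0.192 by edgeR), also without overlap.

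Class I peptide loading had 7 of 8 genes lower, with a median of -0.44. Tap1, which shares its start region with Psmb9, had 66.7, 61.6 and 37.3 CPM after pMCAO, against 84.7, 100.2, 76.8 and 98 CPM after sham, a log2 change of -0.70 (SE 0.22, adjusted p = 0.197 by edgeR). The groups of Tap1 do not overlap, while those of Psmb9 do. Exons of the neighbours overlap over 212 bp on opposite strands and the labels do not state the strand setting of the counting, so part of the reads of one could be counted for the other. Calr, a chaperone of class I molecules, had 253.2, 176.9 and 129.7 CPM after pMCAO and 222.9, 248.6, 353.9 and 306.8 CPM after sham, a log2 change of -0.60 (adjusted p = 0.282 by edgeR).

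The lists for supply and control of the proteasome had medians near that of all genes. Ubiquitin supply and shuttles had 6 genes lower and 7 higher, with a median of 0.01. In it, Zfand5, an activator of the proteasome that is induced in wasting muscle, had 789.8, 1038.3 and 892.8 CPM after pMCAO, against 653.9, 424.7, 520.9 and 546.3 CPM after sham, a log2 change of 0.76 (SE 0.18, adjusted p = 0.117 by edgeR). Every pMCAO library was above every sham library for Zfand5, and its estimate was 0.37 with offsets for GC content and length. DESeq2 (adjusted p = 0.00903) and limma-voom with quality weights (adjusted p = 0.0175) called Zfand5, within a range of 0.00903 to 0.736 over the alternatives. Of all 17209 genes, DESeq2 called 470 and limma-voom with quality weights 818, against 17 by edgeR. Uba1, the main ubiquitin-activating enzyme, had 112.3, 115.6 and 73.8 CPM after pMCAO, against 169.8, 122.1, 156.6 and 144.1 CPM after sham, a log2 change of -0.56 (adjusted p = 0.253 by edgeR).

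The NRF1 axis, which raises proteasome genes when the proteasome is inhibited, had 4 genes lower and 4 higher, with a median of -0.08. Nfe2l2, which encodes NRF2, had 333.4, 293.0 and 339.1 CPM after pMCAO, against 385.7, 471.1, 398.2 and 368.9 CPM after sham, a log2 change of -0.34 (adjusted p = 0.386 by edgeR). Its groups do not overlap. Ddi2, the protease that activates NRF1, had an estimate of 0.25 (adjusted p = 0.57 by edgeR). Partners of the proteasome outside the set had 4 genes lower and 5 higher, with a median of 0.12. Of these, Pomp, the chaperone that completes the core, had 79.3, 113.4 and 60.1 CPM after pMCAO and 111.8, 114.5, 109.7 and 112.9 CPM after sham, a log2 change of -0.41 (adjusted p = 0.405 by edgeR). Uchl5, a deubiquitinase of the cap, had 52, 42.4 and 33.3 CPM after pMCAO and 35.9, 25.4, 25.5 and 29.8 CPM after sham, a log2 change of 0.55 (adjusted p = 0.324 by edgeR). The groups of both partners overlap.

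In the authors' deposited table, 43 members had a lower and 4 a higher log2 fold change (stroke over sham), with a median of -0.724 against -0.035 over all genes. Of the 47 members, 0 had an FDR under 0.05 in the authors' deposited table, against 14 of all 17209 genes. Under an FDR of 0.1 there was 1 member, Psmb10, with a log2 fold change of -1.869 and an FDR of 0.084, and all genes were not counted at that threshold. In the authors' values Psmb5 (-1.435) stood near Psmb8 (-1.442), and Psmb6 (-1.128) near Psmb9 (-1.227). Psmb7 (-0.688) was nearer 0 than Psmb10. The authors' median for the members lies further from 0 than that of the edgeR fit, and the labels do not state the model behind the authors' deposited table.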

How the data were processed

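RNA-seq libraries of sorted muscularis macrophages (3 pMCAO, 4 sham) were sequenced as paired 100 base reads. Per the submitters' processing notes, which name STAR, featureCounts, limma and GRCm38 (mm10), the authors deposited raw read counts per gene. The strand setting and annotation release of the counting are not stated. The deposited CPM values equal count over library total to within 0.0005. The log2 fold changes, p-values and FDR of the deposited table are the authors'. Listed genes exceed 0.5 CPM in at least 4 libraries.

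Counts were tested with edgeR (4.0.16, R 4.3.3) quasi-likelihood, robust, two-sided, TMM factors, group as the only term, over all 17209 genes, with Benjamini-Hochberg adjustment; the biological coefficient of variation was 43.6%. Errors are those between libraries. The floor of 3 counts was 0.087 to 0.236 CPM. The SE is the log2 change over the square root of F. Within-library ratios were tested by exact permutation. Lengths, GC content and exon overlaps came from GENCODE M21, promoters from RefSeq. The script was tested on simulated counts.

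The members and lists were chosen with earlier results of these data known. Named genes were all catalytic subunits, Psme1 to Psme4, Psmf1, Tap1, Cx3cr1 and Ptprc. In each other role they were the 2 lowest p and the highest level per length, and in each outside list the 2 lowest p. Outside this rule, Psmd2 was added with its values in each library, and Psmd4, Psmd1, Psmd11, Psmd14, Psma3 and other members with an estimate only. Not every member of each role is named. Alternatives were RLE, upper-quartile and no scaling, other filters, DESeq2 (1.42.0), limma-voom (3.58.1), thinning, GC and length offsets (mgcv 1.9.3), a stromal covariate, a replicate block and leaving out each library.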

Additional observations from a re-analysis of the deposited data

Results flagged for a closer look

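In 62 gene and ratio values tested among the 4 sham libraries, 2 had 1 library far from the others, where chance marks about 1 in 20. Psmb9 had 49.9 CPM in sham 3, against 80.5 to 81.6 CPM in the other sham libraries, and its log2 change without sham 3 was -0.97. Psmd12 had 63.6 CPM in sham 3, against 74.5 to 75.2 CPM in the other sham libraries, and its log2 change without sham 3 was 0.03.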

How the results depend on the processing

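No member was called under any scaling, filter, leave-one-out or covariate alternative, or at a threshold of 0.10. DESeq2 called 1 member (Psmb10, adjusted p = 0.00788) and limma-voom with sample quality weights called 2 (Psmb10 and Psmb9, adjusted p = 0.0292 and 0.0463). The number of all genes called, 17 by edgeR, was 34 with upper-quartile factors, 29 with no scaling, 75 over genes of at least 5 CPM, 470 by DESeq2, 35 by limma-voom, 818 with quality weights, 33 after thinning, 98 at the threshold of 0.10 and 0 with the stromal covariate (edgeR, 1041 genes at an unadjusted p under 0.05). Leaving out 1 library gave 0 to 100 genes by edgeR, with 100 when pMCAO 2 was left out, 7 when pMCAO 3 was, 0 when pMCAO 1 was (1987 at an unadjusted p under 0.05), 47 without sham 1 or sham 2, and 9 without sham 4. The cause was not tested. The median change of the members kept its sign under 19 alternatives, from -0.47 to -0.17, with -0.17 without pMCAO 3. Leaving out 1 library, the Psmb9 over Psmb6 difference ran from -0.47 to 0.12, that of Psmb8 over Psmb5 from -0.54 to -0.15 and that of Psmb10 over Psmb7 from -1.14 to -0.94, and with GC and length offsets the last was -0.46. Of 740 values of named genes over the alternatives, 706 kept sign and call, 8 became called with the same sign, 26 had the other sign with neither called, and 0 called values reversed. The replicate numbers did not pair the libraries (correlations of deviations of -0.11, 0.01 and 0.18 over 11588 genes), and only pMCAO 3 correlated best with its own number. With the replicate block, a fit that also left out sham 4, 0 members and 21 genes were called. Depth limits Psma8, the member nearest the floor of 3 counts.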
